A study of Mus musculus with 12 samples.

Results

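The interferon-stimulated antiviral genes described here are 35 genes chosen by name from the 55401 in the deposited count files. Their messenger RNA was measured in 2 sorted populations of splenic CD4 T cells. The donors were C57BL/6 mice infected for 21 days with Leishmania donovani, the macrophage-dwelling protozoan of visceral leishmaniasis. TLCP cells were positive for LAG-3 and CXCR5 with low to intermediate PD-1 (PD-1lo/int), and Tfh cells were CXCR5+ PD-1hi follicular helper T cells that the series description places mostly in germinal centers. Each population gave 6 libraries, numbered 1 to 6, and the series description gives 6 mice without saying whether a number marks 1 mouse. The mice of both populations were infected, no uninfected group belongs to the comparison, and the labels used here give neither age nor sex. If libraries of a population share a mouse, the p-values below measure a spread that is partly technical.

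Interferons are secreted when cells sense microbial nucleic acid or, for interferon gamma, when T and NK cells are activated. Type I interferons bind IFNAR and drive a complex with STAT2 and IRF9 to the interferon-stimulated response element (ISRE), whereas interferon gamma binds IFNGR and acts through the gamma-activated sequence (GAS). The genes switched on in this way encode proteins that bind foreign RNA, degrade nucleic acid, deplete nucleotides, tether virus particles or attack the membrane around intracellular microbes. CD4 T cells both make interferon gamma and respond to interferons.

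Libraries held 6939770 to 12688306 reads on genes, and 12015 genes held enough reads to be tested. Levels between populations are given as counts per 1e6 assigned reads after TMM scaling (CPM). A count of 0 allows a level of up to 0.239 to 0.478 CPM (3 counts of the library's TMM-scaled total, counting error only). The sort labels were checked first. Lag3 averaged 189 ± 31.2 CPM in TLCP and 40.5 ± 11.1 CPM in Tfh, Pdcd1 averaged 36.6 ± 4.60 CPM in TLCP and 318 ± 34.8 CPM in Tfh, and Cd3e averaged 503 ± 29.4 CPM in TLCP and 520.3 ± 19.2 CPM in Tfh (SD, n = 6 libraries each). Lag3 passed as higher in TLCP and Pdcd1 as lower, and Cd3e did not pass. The other sort and T cell markers also passed as lower in TLCP. Mean levels were 277 ± 56.9 CPM in TLCP against 849 ± 78.2 CPM in Tfh for Cxcr5, 725 ± 47.1 CPM in TLCP against 955 ± 47.5 CPM in Tfh for Cd4, and 647 ± 77.5 CPM in TLCP against 976 ± 62.2 CPM in Tfh for Trac. Cd3d, at 195 ± 15.6 CPM in TLCP against 294 ± 28.9 CPM in Tfh, and Cd3g, at 419 ± 37.6 CPM in TLCP against 545 ± 18.4 CPM in Tfh, were lower too (largest adjusted p of these 5 genes 8.2e-05, edgeR quasi-likelihood test). B cell transcripts were also present. Over 12 B cell markers the summed level ran from 5450 to 24600 CPM in TLCP and from 1240 to 2440 CPM in Tfh, and over 10 plasma cell markers from 2160 to 12000 CPM in TLCP and from 197 to 1330 CPM in Tfh. In these lists 10 of 12 and 8 of 9 tested markers were higher in TLCP, with Ighm at 10860 ± 7174 CPM in TLCP and 1197 ± 305 CPM in Tfh. On average Ighm made up most of the B cell sum. In TLCP it was highest in library 5, as was the plasma cell marker Igkc, whereas the B cell marker Cd74 was highest in library 6. Immunoglobulin genes took 0.731% to 4.64% of the assigned reads in TLCP, highest in replicates 4 and 5, and 0.110% to 0.384% in Tfh. Basophil markers summed to 27.0 to 99.6 CPM in TLCP and 0.239 to 7.17 CPM in Tfh, and macrophage markers to 30.4 to 117 CPM in TLCP and 17.8 to 82.4 CPM in Tfh. B cells and macrophages express interferon-stimulated genes too, and the part of other cells in the values below was not tested. Results are also given without the 2 TLCP libraries highest in immunoglobulin where that changed a call.

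Promoters are shown first because they carry the sequences named above. RefSeq promoters on the GRCm38.p6 build, from 250 bases before to 50 bases after the transcript start, were found by symbol for 26 of the 35 genes (30 promoters). They were searched on both strands for an ISRE core, which is GAAA, any 2 bases and GAAA again, and for a GAS core, TTCNNNGAA. Matches may overlap: 1 GAS match of Bst2 shares bases with an ISRE match. An ISRE core stood in 53.3% of the 30 promoters, against 3.44% of all 32851 promoters in the table, and a GAS core in 26.7%, against 8.3%. By gene, 15 of the 26 held an ISRE core and 8 a GAS core. A match is a run of letters and not a measured binding site. Lower case marks the promoter up to the last base before the start and capitals mark the motif letters in the 6 promoters below. Igtp and Irgm2 are shown because both genes rose in TLCP and their promoters are nearly the same, Bst2 and Oas1a because both hold both motifs and changed in opposite directions, and Isg15 and Ifit1 because classical ISRE promoters belong here to genes that did not pass the test.
Igtp, chr11:58199436-58199555, plus strand: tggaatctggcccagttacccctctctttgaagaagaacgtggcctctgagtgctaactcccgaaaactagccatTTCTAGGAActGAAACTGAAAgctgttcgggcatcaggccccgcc
Irgm2, chr11:58214857-58214976, plus strand: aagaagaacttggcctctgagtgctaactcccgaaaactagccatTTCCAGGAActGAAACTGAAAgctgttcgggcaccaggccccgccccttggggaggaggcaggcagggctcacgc
Bst2, chr8:71537473-71537622, minus strand: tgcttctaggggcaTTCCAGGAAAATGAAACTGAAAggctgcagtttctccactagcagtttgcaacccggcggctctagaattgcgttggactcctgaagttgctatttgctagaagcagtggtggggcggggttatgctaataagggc
Oas1a, chr5:120907526-120907645, minus strand: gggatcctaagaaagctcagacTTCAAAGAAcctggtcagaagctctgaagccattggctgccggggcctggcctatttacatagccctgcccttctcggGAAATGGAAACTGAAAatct
Isg15, chr4:156200819-156200938, minus strand: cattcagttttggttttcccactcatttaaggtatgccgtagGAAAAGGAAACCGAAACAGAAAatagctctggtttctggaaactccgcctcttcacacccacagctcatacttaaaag
Ifit1, chr19:34640769-34640888, plus strand: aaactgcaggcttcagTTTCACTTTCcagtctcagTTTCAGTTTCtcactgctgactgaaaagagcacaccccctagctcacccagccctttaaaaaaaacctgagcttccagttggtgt

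In the Igtp promoter the GAS core lay 45 to 37 bases before the start and the ISRE core 34 to 25 bases before it, with 2 bases between them. Irgm2 had the same pair 75 to 67 and 64 to 55 bases before its start, also 2 bases apart. Over the 90 bases that could be aligned without gaps, 87 were identical (96.7%). Isg15 held 3 overlapping ISRE cores in a row, and the ISRE cores of Ifit1 read on the opposite strand, where they appear as TTTC, 2 bases and TTTC. Among the 10 genes with a promoter that were higher in TLCP, an ISRE core stood in 4 of 11 promoters and a GAS core in 5. Among the 14 that did not pass, an ISRE core stood in 10 of 17 promoters and a GAS core in 2. Both genes with a promoter that were lower, Oas1a and Ifih1, held an ISRE core, and 1 of the 2, Oas1a, also held a GAS core. The ISRE core of Ifih1 lay 32 to 41 bases after the start. The nearly identical promoters of Igtp and Irgm2 both count among the higher genes, and these shares were not tested against each other.

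TLCP was set against Tfh because, per the series description, the 2 populations looked alike by several flow cytometry markers. All 35 genes had enough reads to be tested. In edgeR's quasi-likelihood test with Benjamini-Hochberg adjustment over all genes tested (threshold 0.05), 14 were higher in TLCP, 3 were lower and 18 did not pass. Of all genes tested 33.2% were called, 16.8% higher and 16.4% lower. The share of antiviral genes called higher was 40.0% and the share called lower, which rests on 3 genes, was 8.57%. The 35 genes were chosen with earlier results of these data known. Their shares are therefore not independent of that choice, and they were not tested against the background. The median log2 fold change of TLCP over Tfh was 0.25 for the 35 genes and -0.004 for all genes tested. In 9 genes every TLCP library lay above every Tfh library and in 1 every TLCP library lay below, while 8.3% and 8.86% of all genes tested were separated in these directions. In bulk libraries, more cells that hold a transcript and more transcript per cell cannot be told apart.

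Calls differed by gene family. All 5 immunity-related GTPases, 2 of 5 OAS genes, 2 of 3 ADP-ribosylation genes and 1 of 4 IFIT genes were higher in TLCP. Neither Isg15 nor Usp18 nor Mx1 passed. With scaling by library totals alone, which moved the median of all genes to 0.17, 18 of the 35 were higher and 1 was lower (26.7% and 7.43% of all genes). Limma on the deposited TPM values, which moved that median to 0.25, gave 17 higher and 0 lower (24.9% and 3.71% of all genes), and 0 of the 35 were lower there at an unadjusted p under 0.05. After these shifts were subtracted, all 17 called genes kept their sign. Oas1a and Ifih1 lost their calls with totals alone (adjusted p = 0.14 and 0.60) and, with Rtp4, on the TPM values. Libraries 1 to 3 and libraries 4 to 6 deviated together within each set, and no label names a batch. Libraries 1 to 3 alone gave 12 higher and 2 lower, and libraries 4 to 6 alone gave 13 higher and 4 lower. Background shares were 14.1% higher and 13.5% lower in the first set and 11.8% higher and 10.9% lower in the second. Of the 17 called genes, those that did not pass within a set were Ifit2, Oas1a and Oasl1 in libraries 1 to 3 and Oasl1, Ifih1 and Bst2 in libraries 4 to 6.

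**Figure D1:**
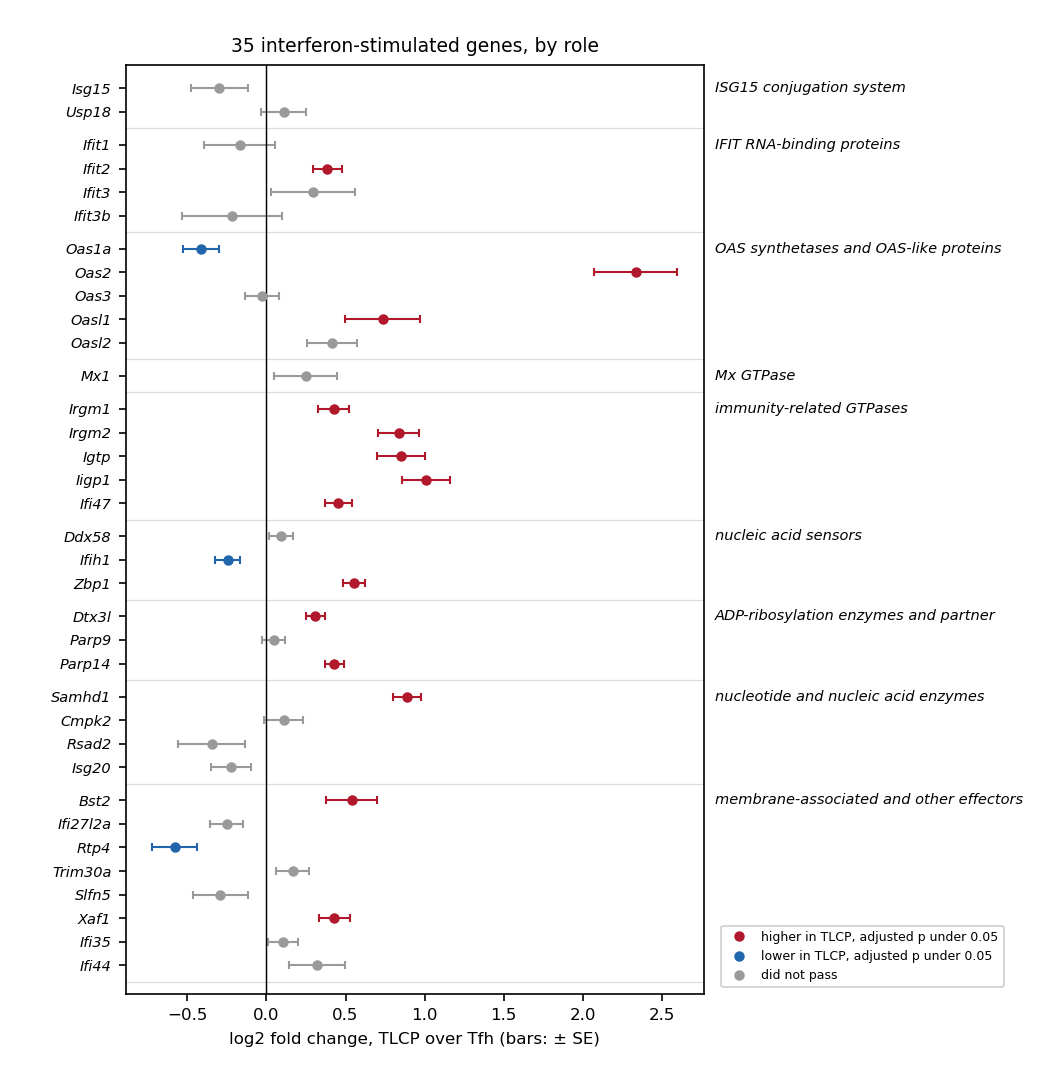
Log2 fold change of TLCP over Tfh (x axis, TMM-scaled counts, points with SE bars) for the 35 genes, grouped by role. Red points were higher and blue points lower at an adjusted p under 0.05, and grey points did not pass. The 5 immunity-related GTPases lie between 0.43 and 1.01, while the IFIT genes lie on both sides of 0.

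The immunity-related GTPases are induced above all by interferon gamma and act on the vacuoles of intracellular microbes in mouse cells. Iigp1 (Irga6), a GTPase that loads onto such vacuoles, was measured at 265 to 452 CPM in TLCP, median 347, and at 142 to 216 CPM in Tfh, median 173. The groups did not overlap, and the level was 2.01-fold higher in TLCP (log2 fold change 1.01, SE 0.152, adjusted p = 0.00027). Igtp (Irgm3), a regulatory GTPase that guards the cell's own membranes, reached 200.6 to 328 CPM in TLCP, median 235, and 110.3 to 177 CPM in Tfh, median 135. Every TLCP library again lay above every Tfh library, and the log2 fold change was 0.85 (SE 0.152, adjusted p = 0.00091). Irgm2, a second regulator of this kind, was at 113 to 164 CPM in TLCP, median 129, and at 63.1 to 98.4 CPM in Tfh, median 67.6. It too was separated, 0.84 higher on the log2 scale (SE 0.127, adjusted p = 0.00011).

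Ifi47 (Irgd) had 203 to 268 CPM in TLCP, median 220.4, and 135 to 186 CPM in Tfh, median 172. Its groups did not overlap, and the log2 fold change was smaller, 0.45 (SE 0.0849, adjusted p = 0.00035). Irgm1, a regulator needed for control of intracellular bacteria in mice, ran from 184 to 298 CPM in TLCP, median 229, and from 159 to 187 CPM in Tfh, median 168. This was the GTPase whose groups overlapped, by 1 TLCP library (log2 fold change 0.43, SE 0.0995, adjusted p = 0.0031). Without the 2 TLCP libraries highest in immunoglobulin, the 5 log2 fold changes were 0.39 to 0.97 and all 5 passed. Igtp spans 58199556 to 58207591 and Irgm2 58199618 to 58222782 on the plus strand of chromosome 11 (GENCODE M21 on GRCm38), so the annotated genes share most of Igtp and their counts are not fully separate. Ifi47 also shares its strand with the span of Olfr56.

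The OAS genes encode enzymes that sense double-stranded RNA and make the messenger that activates RNase L, and their members moved in different directions. Oas2 was measured at 11.7 to 17.3 CPM in TLCP, median 13.7, and at 1.61 to 5.58 CPM in Tfh, median 2.06. The groups were well apart, a 5.05-fold difference (log2 fold change 2.34, SE 0.262, adjusted p = 1.1e-06), from low counts in Tfh. Oas1a went the other way, with 17.0 to 20.9 CPM in TLCP, median 19.4, and 22.2 to 33.9 CPM in Tfh, median 24.2. No TLCP library reached the lowest Tfh library (log2 fold change -0.41, SE 0.113, adjusted p = 0.0078). Without the 2 TLCP libraries highest in immunoglobulin the adjusted p of Oas1a was 0.051, and in libraries 1 to 3 alone it was 0.23.

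Oasl1, an OAS-like protein without synthetase activity that in mice restrains Irf7 translation, ran from 4.80 to 7.94 CPM in TLCP, median 6.61, and from 2.73 to 6.22 CPM in Tfh, median 3.36. The groups overlapped (log2 fold change 0.74, SE 0.237, adjusted p = 0.022). Its call rested on single libraries, since the adjusted p was 0.058 without TLCP replicate 2 and 0.051 without Tfh replicate 5. Oasl2 had 23.2 to 40.6 CPM in TLCP, median 30.5, and 15.9 to 29.4 CPM in Tfh, median 23.0 (log2 fold change 0.41, adjusted p = 0.054). It was higher in TLCP in 6 of 6 numbered pairs and passed with the pair number as a block (adjusted p = 0.0037), and its adjusted p was 0.042 in the authors' deposited table. Oas3, at 38.9 to 54.2 CPM in TLCP and 36.5 to 55.2 CPM in Tfh, overlapped almost fully, and its log2 fold change of -0.03 (adjusted p = 0.86) changed sign with the scaling. Oas1a, Oas2 and Oas3 lie together on chromosome 5, Oas2 from 120730333 to 120749853, Oas3 from 120753098 to 120777661 and Oas1a from 120896256 to 120907521.

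The IFIT proteins bind viral RNA, Ifit1 by its unmethylated cap, and their genes lie side by side on chromosome 19 from the start of Ifit2 at 34550694 to the end of Ifit1 at 34650009. Ifit2 was measured at 62.3 to 93.0 CPM in TLCP, median 82.4, and at 58.2 to 73.8 CPM in Tfh, median 60.0. The groups overlapped and the log2 fold change was 0.38 (SE 0.092, adjusted p = 0.003), although in libraries 1 to 3 alone the adjusted p was 0.15. Ifit1 had 31.2 to 53.5 CPM in TLCP, median 43.0, and 26.1 to 63.1 CPM in Tfh, median 51.6 (log2 fold change -0.17, SE 0.222, adjusted p = 0.60). The range of Ifit1 in TLCP lay inside its range in Tfh. Ifit3 and Ifit3b are close copies, and reads that mapped to several places were left out of the counts, so the levels of both are uncertain. The log2 fold change was 0.29 for Ifit3 (adjusted p = 0.44) and -0.22 for Ifit3b (adjusted p = 0.63). The sign for Ifit1 and Ifit3b turned on the TPM values and without the 2 TLCP libraries highest in immunoglobulin.

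Isg15, a ubiquitin-like modifier that is attached to proteins during the interferon response, ran from 7.95 to 18.9 CPM in TLCP, median 14.0, and from 12.9 to 20.5 CPM in Tfh, median 15.8. Isg15 was lower in TLCP in 5 of 6 numbered pairs and did not pass (log2 fold change -0.30, SE 0.183, adjusted p = 0.23). The value was 0.001 in libraries 1 to 3 and -0.65 in libraries 4 to 6 (adjusted p = 0.079), and the difference between these sets was not tested. Usp18, which removes Isg15 and restrains IFNAR signaling, had a log2 fold change of 0.11 (adjusted p = 0.59). Mx1, a GTPase against RNA viruses that is defective in C57BL/6 and most other laboratory strains, had 29.5 to 52.7 CPM in TLCP, median 38.5, and 19.3 to 48.3 CPM in Tfh, median 32.6. Its groups overlapped widely (log2 fold change 0.25, adjusted p = 0.37), and with the pair number as a block the adjusted p was 0.048.

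Among the sensors of foreign nucleic acid, Zbp1, which binds Z-form RNA and DNA and can start necroptosis, was at 178 to 217 CPM in TLCP, median 190.4, and at 118 to 148 CPM in Tfh, median 131. The groups were separated (log2 fold change 0.55, SE 0.0701, adjusted p = 5.1e-06). Ifih1 (MDA5), a sensor of long double-stranded RNA, was at 85.4 to 113 CPM in TLCP, median 94.1, and at 101 to 131 CPM in Tfh, median 110.2. It was slightly lower in TLCP with overlapping groups (log2 fold change -0.24, SE 0.0786, adjusted p = 0.021). This call was lost without TLCP replicate 3 (adjusted p = 0.053), without Tfh replicate 2 (0.051) and without the 2 TLCP libraries highest in immunoglobulin (0.063). Ddx58 (RIG-I), a sensor of RNA with a 5′ triphosphate, did not pass (log2 fold change 0.09, SE 0.0748, adjusted p = 0.37) at 128 to 159 CPM in TLCP and 122 to 160.5 CPM in Tfh.

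Parp14, an enzyme that adds ADP-ribose to proteins, had 426 to 484 CPM in TLCP, median 455, and 320.1 to 374 CPM in Tfh, median 328. Dtx3l, a ubiquitin ligase that works in a complex with Parp9, had 243 to 304 CPM in TLCP, median 284, and 219 to 228 CPM in Tfh, median 222. Both were separated between the groups. The log2 fold change was 0.43 for Parp14 (SE 0.0593, adjusted p = 1.4e-05) and 0.31 for Dtx3l (SE 0.0597, adjusted p = 0.00048). Parp9 itself was at 160 to 210.3 CPM in TLCP, median 178, and at 159 to 192 CPM in Tfh, median 174, and did not pass (log2 fold change 0.05, SE 0.0705, adjusted p = 0.66). Dtx3l and Parp9 overlap at one end on opposite strands of chromosome 16, from 35938470 to 35939151. Reads were counted by strand, with 2.83% to 4.19% of counts on the opposite strand.

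Samhd1, which breaks down dNTPs and so starves reverse transcription, ran from 801 to 1068 CPM in TLCP, median 881, and from 411 to 568 CPM in Tfh, median 478. The groups were separated and the level was 1.85-fold higher in TLCP (log2 fold change 0.89, SE 0.0872, adjusted p = 2.3e-07). The other 3 enzymes of nucleotides and RNA did not pass. Rsad2 (viperin), which makes a chain-terminating nucleotide, had 18.5 to 32.8 CPM in TLCP, median 23.1, and 18.2 to 47.0 CPM in Tfh, median 31.7 (log2 fold change -0.35, adjusted p = 0.24). Cmpk2, a mitochondrial nucleotide kinase encoded beside Rsad2 on chromosome 12, had a log2 fold change of 0.11 (adjusted p = 0.54), and Isg20, an exonuclease, one of -0.22 (adjusted p = 0.18).

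Of the 8 remaining effectors, Bst2 and Xaf1 were higher and Rtp4 was lower. Bst2 (tetherin), which holds budding virus at the cell surface and also marks plasmacytoid dendritic cells, had 12.8 to 16.6 CPM in TLCP, median 14.3, and 7.35 to 13.5 CPM in Tfh, median 8.70. The groups overlapped (log2 fold change 0.54, SE 0.162, adjusted p = 0.014), and without the 2 TLCP libraries highest in immunoglobulin the adjusted p was 0.071. The list of 8 plasmacytoid dendritic cell markers, which includes Bst2, summed to 122 to 188 CPM in TLCP and 32.6 to 70.8 CPM in Tfh. The highest means of this list in TLCP were those of Tcf4, 50.8 CPM, and Ly6d, 35.6 CPM. All 5 of its tested genes, Bst2 among them, were higher, and none of the 8 was at 0 in all libraries. The other 3 had too few reads to be tested. They include Siglech, a defining marker named outside the rule for marker genes, at 0 to 5.51 CPM in TLCP and 0 to 0.0985 CPM in Tfh. The part of plasmacytoid dendritic cells, B cells and plasma cells in the level of Bst2 was not tested.

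Xaf1, an interferon-induced partner of the apoptosis inhibitor XIAP, had 45.5 to 62.1 CPM in TLCP, median 57.0, and 34.2 to 51.1 CPM in Tfh, median 40.8 (log2 fold change 0.43, SE 0.0972, adjusted p = 0.0019). Its groups overlapped by 1 Tfh library. Rtp4, a chaperone for cell-surface receptors, had 33.2 to 50.9 CPM in TLCP, median 42.1, and 44.3 to 87.7 CPM in Tfh, median 62.7. It had the most negative log2 fold change of the 35 genes, -0.58 (SE 0.141, adjusted p = 0.0047), with groups that overlapped, and its span on chromosome 16 shares its strand with that of Gm45338. On the TPM values Rtp4 did not pass (adjusted p = 0.29). Ifi27l2a, Trim30a, Slfn5, Ifi35 and Ifi44 did not pass, with log2 fold changes between -0.29 and 0.32. Slfn5, of the Schlafen family, was lower in TLCP in 6 of 6 numbered pairs and ran from 174 to 300.2 CPM in TLCP and from 222 to 385 CPM in Tfh. With the pair number as a block Slfn5 passed as lower (adjusted p = 0.00066) and Trim30a, a TRIM family ligase, as higher (adjusted p = 0.031). In libraries 4 to 6 alone 3 of these genes passed, Ifi27l2a as lower (log2 fold change -0.57, adjusted p = 0.0017), Slfn5 as lower (-0.34, adjusted p = 0.012) and Trim30a as higher (0.33, adjusted p = 0.0074). In libraries 1 to 3 alone none of the 3 passed, with log2 fold changes of 0.03 for Ifi27l2a, -0.26 for Slfn5 and 0.027 for Trim30a, and the difference between the sets was not tested.

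**Figure D2:**
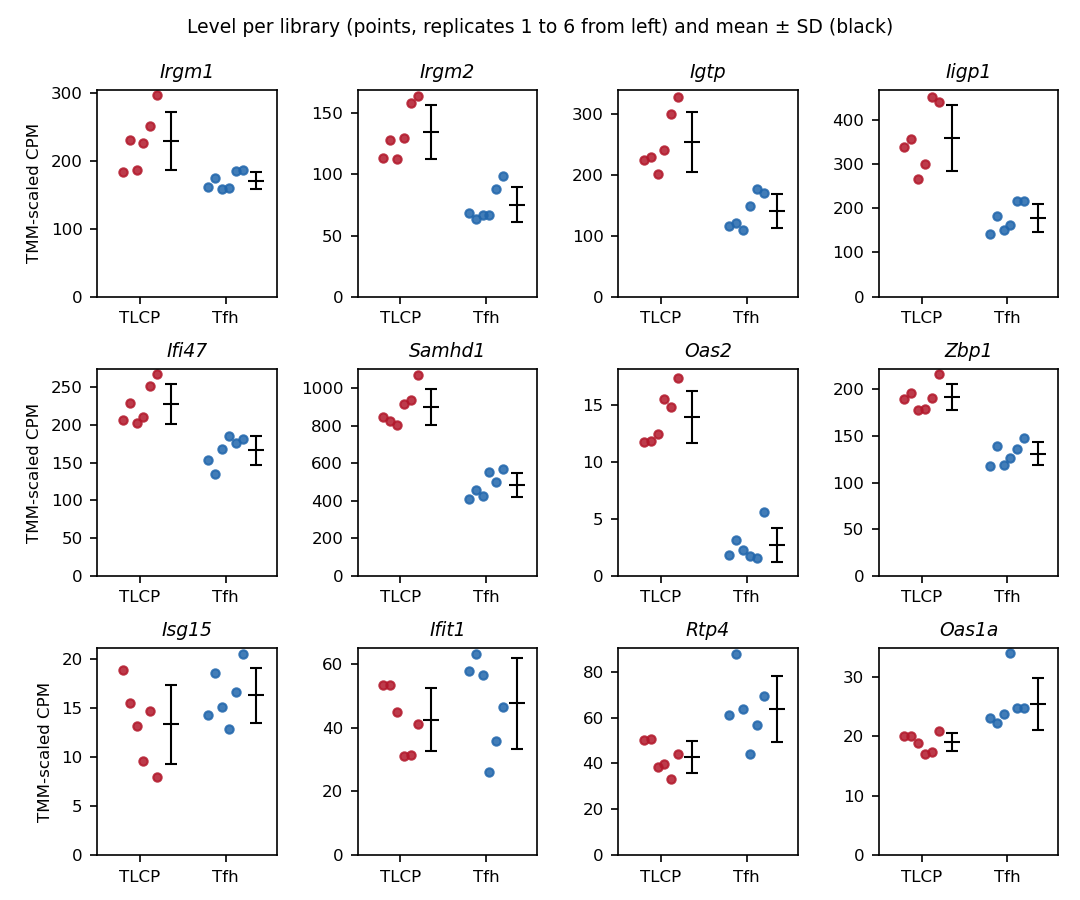
TMM-scaled CPM (y axis, linear from 0) of 12 of the 35 genes in each library, with TLCP left of Tfh, replicates 1 to 6 from the left within a group and the mean ± SD in black. Every TLCP point of Irgm2, Igtp, Iigp1, Ifi47, Samhd1, Oas2 and Zbp1 lies above every Tfh point and every TLCP point of Oas1a below, whereas Isg15 and Ifit1 overlap.

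With the pair number as a block, all 17 called genes kept their call and 4 were added, Oasl2, Mx1 and Trim30a as higher and Slfn5 as lower, which made 17 higher and 4 lower. In this fit 19.1% of all genes were called higher and 18.0% lower. Each of the 17 genes called without the block moved the same way in 6 of 6 pairs. Of the 4 added, Oasl2 and Slfn5 did so in 6 of 6 pairs and Mx1 and Trim30a in 5 of 6. In 18 of the 35 genes the highest TLCP library and the highest Tfh library carried the same number, 9 times number 2, 6 times number 6, 2 times number 5 and 1 time number 1. The lowest libraries shared a number in 9 genes. These counts describe the 12 libraries and were not tested. The share of all genes tested that peaked in this way was not counted. Same-numbered libraries deviated together over all genes tested (r 0.127 to 0.318), so the counts are not shown to be particular to these 35 genes.

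The numbers in which the genes peaked differed by role. The summed level of the 5 immunity-related GTPases in TLCP libraries 1 to 6 was 1066, 1176, 968, 1108, 1413 and 1498 CPM, and in Tfh libraries 1 to 6 it was 642, 678, 656, 723, 842 and 853 CPM. Libraries 5 and 6 were the highest in both populations. The 4 IFIT genes summed to 174, 184, 131, 126, 126 and 157 CPM in TLCP libraries 1 to 6 and to 154, 168, 134, 98.9, 111 and 129 CPM in Tfh libraries 1 to 6. Here library 2 was the highest in both and libraries 4 and 5 were the lowest 2 in both. Mx1 was also highest in library 2 of both populations, at 52.7 CPM in TLCP and 48.3 CPM in Tfh. The lowest value of the GTPase sum in TLCP, 968 CPM, was above the highest in Tfh, 853 CPM, whereas the IFIT sums overlapped. Immunoglobulin took 4.64% of the reads in TLCP library 5 and 1.57% in TLCP library 6, the 2 highest in the GTPase sum.

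**Figure D3:**
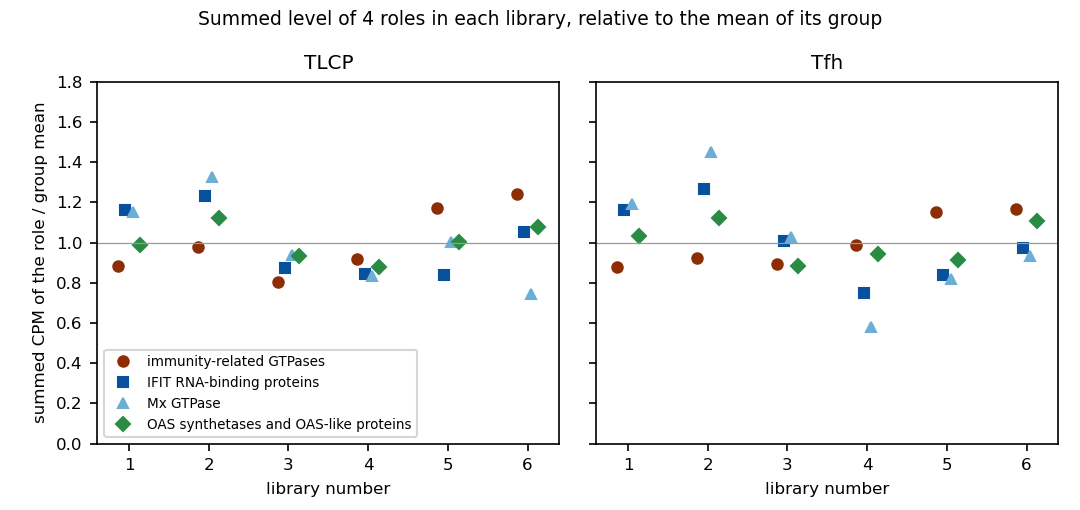
Summed TMM-scaled CPM of 4 roles in each library, divided by the mean of its own group (y axis, linear from 0, 1 is the group mean), with TLCP in the left panel and Tfh in the right and the library number on the x axis. The immunity-related GTPases are above their group mean in libraries 5 and 6 of both populations, and the IFIT genes and Mx1 are highest in library 2 of both.

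Levels between genes were compared per transcript length with the deposited TPM values, which still include CT010467.1, a transcript like ribosomal RNA that took 12.9% to 24.1% of assigned reads in TLCP and 16.6% to 30.9% in Tfh. Ifi27l2a, which encodes a small interferon-induced protein, was the most abundant of the 35 genes in both populations, at 560 ± 97.4 TPM in TLCP and 548 ± 73.6 TPM in Tfh (SD, n = 6). It held 17.9% of the summed TPM of the 35 genes in TLCP and 25.2% in Tfh. Igtp came second in both, at 332 ± 88.7 TPM in TLCP and 148 ± 25.6 TPM in Tfh. In TLCP the next were Samhd1 at 259 ± 50.2 TPM and Ifi47 at 243 ± 44.9 TPM, which overlap within their SD, and in Tfh Ifi47 at 145 ± 21.2 TPM stood beside Igtp within their SD. At the low end Oas2 was the last of the 35 in Tfh at 1.33 ± 0.807 TPM, and Ifi44 was the last in TLCP at 5.30 ± 0.735 TPM. The 35 genes summed to 2500 to 3728 TPM in TLCP, median 3060, and to 1781 to 2669 TPM in Tfh, median 2172.

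**Figure D4:**
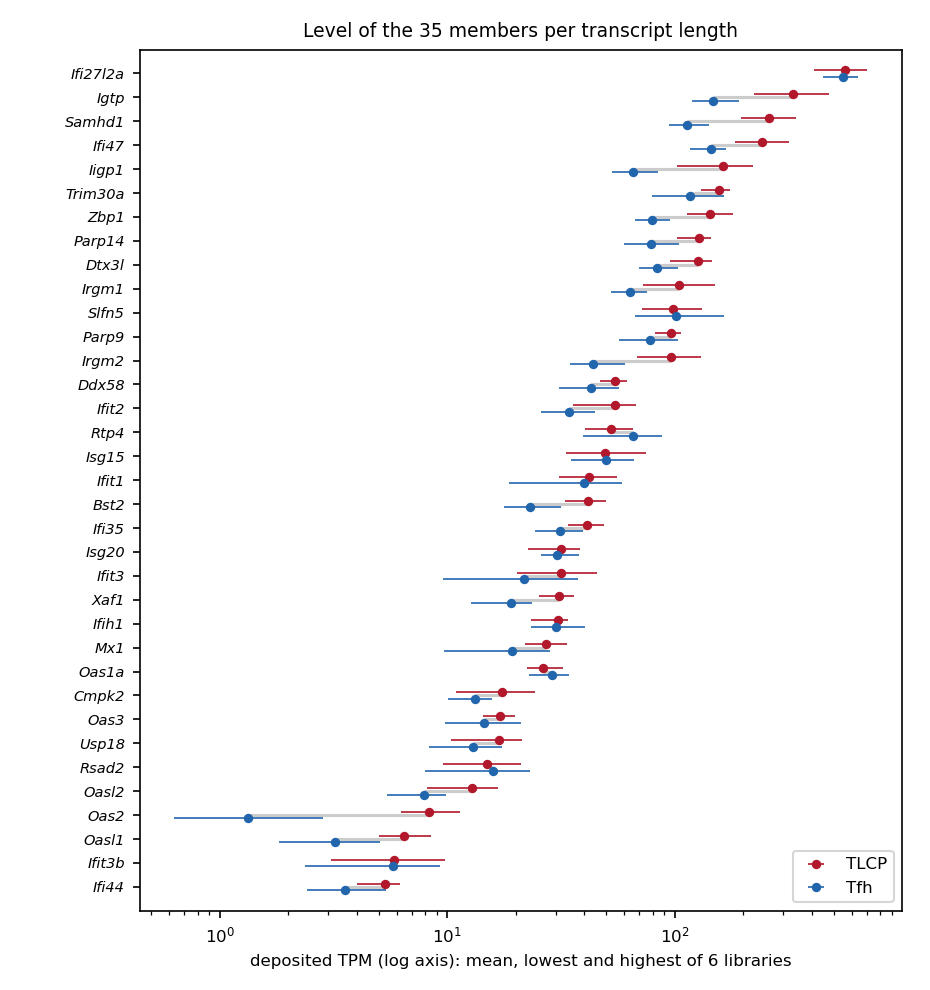
Deposited TPM of the 35 genes on a log axis, with the mean (points) and the lowest to highest of 6 libraries (lines) for TLCP in red above Tfh in blue. Ifi27l2a leads at 560 TPM in TLCP and 548 TPM in Tfh, and the ranges of Oas2 in the 2 groups stand far apart.

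The genes around the antiviral effectors were taken from 6 lists of 130 genes, of which 103 had enough reads to be tested. In these lists 47 genes were higher in TLCP (45.6%), 6 were lower (5.83%) and 50 did not pass, with a median log2 fold change of 0.32. Among all genes tested 16.8% were higher and 16.4% lower. These lists too were chosen with earlier results of these data known, and the shares were not tested against each other. Of 21 interferon genes only Ifng was tested, 19 were at 0 in all 12 libraries and Ifnz reached at most 2 counts. Ifng, the gene of interferon gamma, had 22.9 to 67.9 CPM in TLCP, median 34.3, and 5.12 to 20.5 CPM in Tfh, median 8.92. The groups did not overlap, a 3.53-fold difference (log2 fold change 1.82, SE 0.411, adjusted p = 0.0061), although in libraries 4 to 6 alone the adjusted p was 0.068.

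Both chains of the interferon gamma receptor were higher in TLCP, and the IFNAR chains moved apart. Ifngr1, the ligand-binding chain for interferon gamma, had 88.8 to 159 CPM in TLCP, median 107, and 21.9 to 50.5 CPM in Tfh, median 36.2. It was 3.23-fold higher in TLCP with no overlap (log2 fold change 1.69, SE 0.225, adjusted p = 0.00016). Its partner Ifngr2 was higher by a log2 fold change of 0.58 (adjusted p = 0.0092). For type I interferons, Ifnar1 was higher (log2 fold change 0.38, adjusted p = 0.00014) and Ifnar2 lower (log2 fold change -0.49, adjusted p = 0.00032). Of 6 receptor chains, 5 were tested, with 3 higher (60.0%) and 1 lower (20.0%), against 16.8% and 16.4% of all genes tested.

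Among 12 JAK, STAT and IRF genes, 7 were higher (58.3%) and 2 lower (16.7%), against 16.8% and 16.4% of all genes tested. The kinase Jak2, used by the interferon gamma receptor, was at 308 to 408 CPM in TLCP, median 344, and at 495 to 670 CPM in Tfh, median 573, with no overlap (log2 fold change -0.71, SE 0.085, adjusted p = 3e-06). Tyk2, used by IFNAR, was higher (log2 fold change 0.65, adjusted p = 0.00017). Stat2 was higher (log2 fold change 0.58, SE 0.0699, adjusted p = 3e-06). Irf9, a DNA-binding partner of Stat2, had a log2 fold change of 0.06 (adjusted p = 0.57), and Irf7, which amplifies type I interferon production, one of 0.05 (adjusted p = 0.75); neither passed. Irf5 was higher (log2 fold change 1.24, adjusted p = 0.00016), as was Irf1, an interferon-induced transcription factor (log2 fold change 0.72, adjusted p = 0.00017). Irf1 was named after its value was seen. Irf5 and Irf1 were highest in library 6 of both populations, as was the B cell marker Cd74, and the part of B cells in their levels was not tested.

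Of 12 genes of nucleic acid sensing, 2 were higher (16.7%), 1 was lower (8.33%) and 9 did not pass. Among all genes tested 16.8% were higher and 16.4% lower, so neither share of this list was above the background. Tlr7, a receptor for single-stranded RNA that B cells express, had 22.7 to 57.3 CPM in TLCP, median 32.4, and 2.66 to 14.1 CPM in Tfh, median 6.95 (log2 fold change 2.22, SE 0.402, adjusted p = 0.0015). Tlr7 was separated between the groups, as were the sums of the B cell markers given above, and their part in this difference was not tested. Tlr3, a receptor for double-stranded RNA, was 2.46-fold higher (adjusted p = 0.0038) and Sting1, the adaptor of the DNA sensor cGAS, was lower without overlap (log2 fold change -0.43, adjusted p = 1.7e-05). Of 8 genes listed as negative regulators 7 were tested and 4 were higher (57.1%, against 16.8% of all genes tested). The list was made by name, and a regulatory role of its genes was not tested here. Socs3, which blocks JAK kinases, had 75.6 to 96.8 CPM in TLCP, median 82.0, and 25.4 to 44.3 CPM in Tfh, median 34.7, with no overlap (log2 fold change 1.29, SE 0.119, adjusted p = 1.6e-07). The others were Nlrc5 (log2 fold change 0.48, adjusted p = 2.4e-06), Ptpn6 (0.34, adjusted p = 0.0087) and Adar (0.17, adjusted p = 0.038), and Adar lost its call in 7 of the 12 fits that left out 1 library and without the 2 TLCP libraries highest in immunoglobulin (adjusted p = 0.19). In libraries 1 to 3 alone Tlr3 did not pass, and in libraries 4 to 6 alone Ifngr2, Ptpn6 and Adar did not. Ifnar2 and Sting1 did not pass on the TPM values.

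Beyond the 35 genes, 71 further interferon-stimulated genes were listed and 66 tested. Of these 30 were higher (45.5%), 2 were lower (3.03%) and 34 did not pass, against 16.8% higher and 16.4% lower among all genes tested. Trim30b, a relative of Trim30a, was 5.13-fold higher in TLCP, at 11.9 to 19.4 CPM in TLCP, median 13.5, and 1.24 to 3.83 CPM in Tfh, median 3.31, with no overlap (adjusted p = 4.4e-07). The ISG15 pathway was again uneven. Uba7, the enzyme that activates Isg15, was higher (log2 fold change 0.65, SE 0.0692, adjusted p = 6.2e-07), and so was its conjugating enzyme Ube2l6 (log2 fold change 0.66, adjusted p = 0.005), named after its value was seen, although Isg15 itself had a log2 fold change of -0.30 and did not pass. In libraries 4 to 6 alone Ube2l6 did not pass either (log2 fold change 0.45, adjusted p = 0.17), against 0.91 in libraries 1 to 3 (adjusted p = 0.00079), and the difference between the sets was not tested. Mndal and Slfn8 were the other named genes of the list, 1.91-fold higher for Mndal (adjusted p = 7.8e-06) and 1.62-fold higher for Slfn8 (adjusted p = 3e-06).

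**Figure D5:**
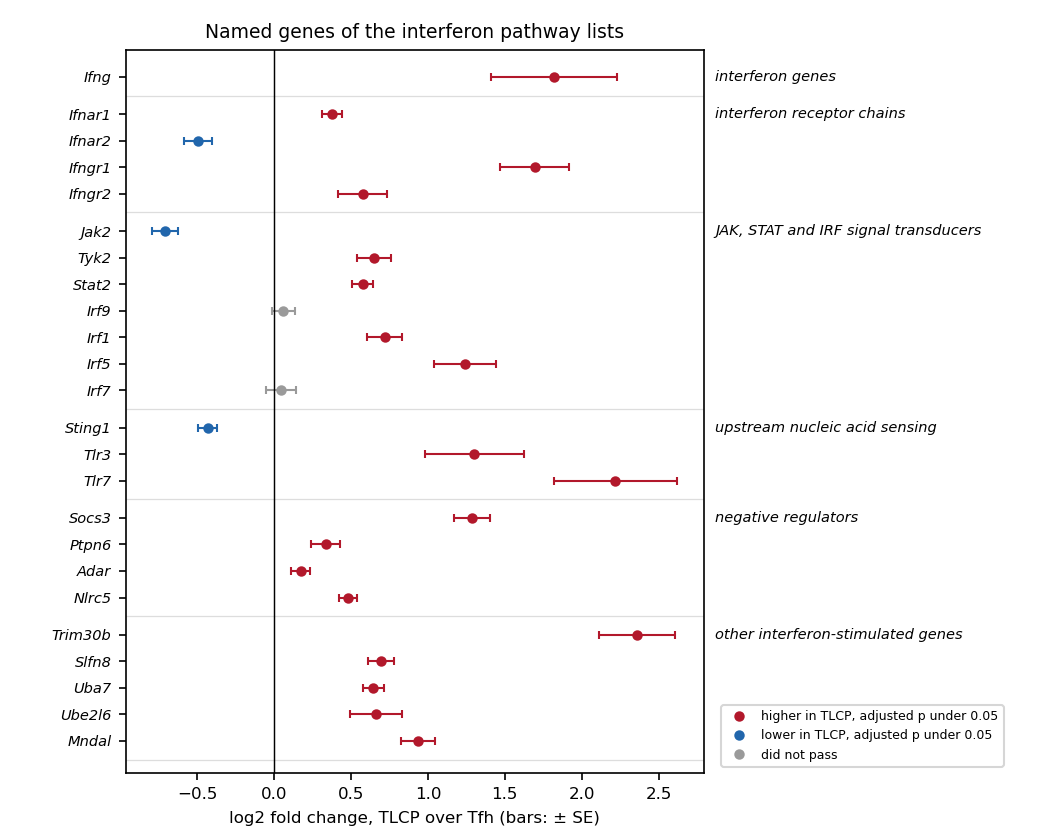
Log2 fold change of TLCP over Tfh (x axis, points with SE bars) for the named genes of the 6 pathway lists, grouped by list. Red points were higher and blue points lower at an adjusted p under 0.05, and grey points did not pass. Both chains of the interferon gamma receptor lie right of 0, whereas Jak2, Ifnar2 and Sting1 lie left of it.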

How the data were processed

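RNA of sorted spleen CD4 T cells was measured in 6 TLCP and 6 Tfh libraries, made by poly(A) selection per the labels' protocols. The submitters' processing notes name STAR 2.7.1a, bcl2fastq 2.20, DESeq2 1.30.1 and the GRCm38 build. No source used here gives an annotation release. The authors deposited raw counts per gene and strand, 1 file a library, and the stranded counts were used. Between 44.9% and 56.4% of reads were not assigned to a single gene and were left out. They include reads that mapped to several places, which were 16.1% to 24.3% of all reads. The authors' deposited table holds a normalized signal per library (counts over a size factor), log2 fold changes and p-values. Whole reads were recovered from that signal for 100% of values (tolerance 0.01) and equalled the counts. TPM values deposited by the authors served for levels between genes.

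The main test was edgeR 4.0.16 in R 4.3.3 (filterByExpr, TMM, robust quasi-likelihood test, 2-sided, Benjamini-Hochberg over all genes tested, threshold 0.05), without covariates. SE is the absolute log2 fold change over the square root of F. The script was tested on simulated data. Libraries of a population differed beyond sampling noise in each pair (chi-square at least 6.49 per degree of freedom). Same-numbered libraries deviated together (r 0.127 to 0.318 in all 6 pairs), so the block on the number was a paired alternative; the pairing is inferred.

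The 35 genes and all lists were chosen with earlier results of these data known. All 35 may be named, and of each pathway list the 4 called genes with the smallest p, besides Ifng, Irf7 and Irf9; 1 gene that the rule also names is not reported here. Of each marker list the 2 with the highest mean CPM were named where used. Alternatives were RLE, upper quartile and totals scaling, DESeq2 1.42.0, no filter, a stricter filter (10 CPM in 6 libraries), unstranded counts, limma 3.58.1 on log2(TPM + 1), the block, leaving out immunoglobulin and B cell genes, ribosomal RNA genes, each library, the 2 TLCP libraries highest in immunoglobulin, and each set of 3 libraries. The recovered reads were added after seeing the data. Promoters are RefSeq's, and gene positions are from GENCODE M21, in which 33 of the 35 genes had the spans of the files.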

Additional observations from a re-analysis of the deposited data

Results flagged for a closer look

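Among 70 sets of 6 libraries (35 genes in each of the 2 populations), 1 held a library far from the others by Dixon's criterion, which chance alone meets in about 1 of 20 sets. Oas1a was at 33.92 CPM in Tfh replicate 4, and the nearest other Tfh library was at 24.78 CPM, a gap of 0.782 of the group's range. Without that library the log2 fold change of Oas1a was -0.32 (adjusted p = 0.018), against -0.41 with it.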

How the results depend on the processing

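Of the 17 called genes, 11 kept their call and sign in all 27 other settings: Oas2, the 5 immunity-related GTPases, Zbp1, Dtx3l, Parp14, Samhd1 and Xaf1. The other 6 (Ifit2, Oas1a, Oasl1, Ifih1, Bst2 and Rtp4) lost the call in at least 1, and the cause was not tested. Fits without 1 library gave 13 to 15 antiviral genes higher and 2 to 4 lower, 40 to 50 pathway genes higher and 6 to 7 lower, and 1770 to 2052 of all genes higher and 1719 to 1974 lower. The number of antiviral genes lower was 1 with library totals alone, 0 on TPM values and 1 without the 2 TLCP libraries highest in immunoglobulin. Pathway genes lower were 1 on TPM values. Of all genes, 3207 were higher and 893 lower with totals alone, and 3180 higher and 473 lower on TPM values. The log2 fold change of genes that had not passed, and of Ifih1, turned in these settings. On TPM values it was 0.15 for Ifit1, 0.004 for Ifit3b, 0.25 for Oas3, 0.041 for Ifih1, 0.05 for Isg20 and 0.022 for Ifi27l2a. Without the 2 libraries it was 0.002 for Ifit1, 0.06 for Ifit3b and 0.063 for Oas3, with totals alone 0.13 for Oas3, and on unstranded counts -0.018 for Usp18. In libraries 1 to 3 it was 0.001 for Isg15, -0.034 for Cmpk2 and 0.03 for Ifi27l2a, and in libraries 4 to 6 -0.026 for Ifi35, -0.041 for Irf9 and -0.099 for Irf7. Leaving out 1 library moved it between -0.093 and 0.02 for Oas3, -0.012 and 0.072 for Parp9 and -0.027 and 0.098 for Irf7. With the replicate block 17 antiviral genes were higher and 4 lower, and 59 pathway genes higher and 9 lower. Pairing by number is inferred: the own number gave the best correlation for 9 of 12 libraries, and other numbers reached 0.209. With the stricter filter 33 of the 35 genes were tested. Depth limits Oas2, Oasl1 and Ifit3b most, which had the fewest reads.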
